A study of Mus musculus with 10 samples.

Results

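Zinc finger transcription factor genes, 9 in number, were followed through 8 peak lists of mouse skeletal muscle chromatin, namely Klf2, Klf4, Klf5, Klf6, Klf9, Klf10, Klf13, Klf15 and Zbtb16. They were chosen by name, as 9 of 26182 genes with a curated RefSeq transcript on the mouse build GRCm38. A peak was counted for a gene when its midpoint lay in the gene body or within 30 kb of a transcription start site (TSS), and the same window was drawn around every gene. The peaks came from chromatin immunoprecipitation sequencing (ChIP-seq) with antibodies to the glucocorticoid receptor (GR), the histone demethylase LSD1, and histone H3 mono- or dimethylated at lysine 9 (H3K9me1, H3K9me2). Muscle was taken from C57BL/6J mice that were fed or had been starved for 24 h. According to the labels the mice were 10 weeks old, whereas the study text gives another age, and the study describes male mice and limb muscle. No transgene, deletion or drug is named for these samples. Nuclei came from whole muscle, so myofibre nuclei and those of other muscle cells cannot be told apart, and how many animals entered a library is not given in the labels.

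Each antibody gave 1 library per condition, and an input library of each condition served the authors as control. The values therefore describe single libraries, and no difference between conditions has a replicate check. Only peak lists were analysed, so sequencing depth is unknown and the tissue could not be checked against expressed marker genes. The GR lists held 14108 fed and 37783 starved peaks, and the LSD1 lists 16616 fed and 66332 starved peaks. The longer starved lists reach further into weak peaks, with a median fold enrichment of 2.70 against 3.29 for GR and 3.44 against 4.03 for LSD1. Fold enrichment is the ratio of ChIP to control signal that the peak caller assigned to a peak. The study text counts far fewer LSD1 starved peaks than this list holds, and fewer than in fed muscle, so the starved LSD1 list may not be the version used there, and every LSD1 starved count, ratio and overlap holds for the deposited list only. The labels open each extraction text with a preparation code. Both GR libraries carry one such code and both LSD1 libraries the other, so antibody and code cannot be told apart between GR and LSD1. Both inputs carry the code of the GR libraries, so LSD1 folds rest on an input of the other code. For each methyl mark the fed and the starved library carry different codes, so condition and code cannot be told apart there.

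GR is a nuclear receptor that binds glucocorticoids and then attaches to DNA, commonly at a pair of inverted hexamers called the glucocorticoid response element (GRE). Krüppel-like factors (KLF) bind GC-rich or CACC-containing promoter elements through C-terminal zinc fingers. Klf9, Klf15 and Zbtb16 (also called PLZF) are widely known as genes that glucocorticoids induce, and KLF15 promotes the breakdown of branched-chain amino acids in muscle. LSD1 removes mono- and dimethyl groups from histone H3, and fasting raises circulating glucocorticoids.

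The strongest GR sites of the set lay in introns of Zbtb16 (fold enrichment up to 16.6 in fed muscle), Klf13 (14.1) and Klf15 (9.62) and upstream of Klf9 (7.43, starved), whereas Klf4, Klf5 and Klf6 had weak promoter peaks alone in fed muscle. The GRE was searched as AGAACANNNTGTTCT, a palindrome that reads the same on both strands, with at most 1 mismatch over its 12 fixed bases. In the GR peaks of the 9 genes 4 such GRE-like sequences were found, the same 4 in fed and in starved muscle. They are shown because they are the places where sequence and GR peak coincide, although mostly away from the peak centre. The sequence in the strongest Klf13 peak lay 55 bp from the fed midpoint, whereas the other 3 lay 335 to 486 bp from theirs, and all 4 lay 133 to 286 bp from the starved midpoint. In the central 200 bp, 1.79% of the fed and 0% of the starved GR peaks of the 9 genes held one. Each is given on the plus strand of GRCm38 with 40 bases on either side, and capitals mark the fixed bases that match.
Klf13 intron, chr7:63897049-63897143: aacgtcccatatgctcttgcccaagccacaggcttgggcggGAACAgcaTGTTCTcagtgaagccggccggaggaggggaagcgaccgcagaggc
Klf13 intron, chr7:63912077-63912171: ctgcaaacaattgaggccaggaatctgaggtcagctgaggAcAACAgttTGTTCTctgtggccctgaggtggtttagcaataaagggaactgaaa
Klf15 intron, chr6:90472213-90472307: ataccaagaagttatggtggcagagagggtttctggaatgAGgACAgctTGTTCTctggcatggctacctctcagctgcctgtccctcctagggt
Zbtb16 intron, chr9:48775784-48775878: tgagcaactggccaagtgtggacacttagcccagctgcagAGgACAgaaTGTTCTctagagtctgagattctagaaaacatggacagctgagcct
All 4 also lay in a peak of the LSD1 fed list, and none lay in a peak of the LSD1 starved list. The LSD1 starved peaks are short, with a median of 103 bp over the whole list against 196 bp in LSD1 fed, and whether this bears on the absence was not tested.

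A GRE-like sequence was present in 4 of the 56 GR fed peaks of the 9 genes, or 7.14% with an exact 95% binomial confidence interval (CI) of 1.98 to 17.3%. In the whole GR fed list it was present in 2.17% of peaks. In starved muscle 4 of 91 peaks held one (4.40%, CI 1.21 to 10.9%), against 0.712% of the whole list. The intervals cover counting error only. The member peaks were longer than those of the whole GR fed list, with medians of 433 and 277 bp, and a longer peak has more room for a match. Among GR fed peaks of 5-fold enrichment or more the share was 7.14% at the 9 genes (1 of 14, CI 0.181 to 33.9%) and 7.28% of the whole list, and among those under 5 it was 7.14% (3 of 42, CI 1.50 to 19.5%) and 1.53%. By gene, Klf13, Klf15 and Zbtb16 had a GR peak with a GRE-like sequence in either condition, that is 3 of 9 genes, against 1.49% of all genes in fed and 1.49% in starved muscle. These 3 genes also had the most GR fed peaks of the 9, and more peaks give more room for a match. No match without mismatch was found in these peaks, and 10 of 56 fed peaks held one with at most 2 mismatches (17.9%), compared with 9.75% of the whole list.

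All 9 genes had at least 1 GR peak in fed muscle, where 43.1% of all genes had one, and all 9 had one in starved muscle, where the share of all genes was 66.5%. LSD1 peaks were also found at all 9 genes in fed muscle (51.1% of all genes) and in starved muscle (83.7% of all genes). H3K9me2 was called at all 9 in fed muscle, which is close to the 95.5% of all genes, and at 1 gene, Klf10, in starved muscle (10.2% of all genes). H3K9me1 was called at 6 of 9 in fed muscle, against 38.0% of all genes, and at 7 of 9 in starved muscle, against 65.6%. Against these shares, the 9 of 9 for GR fed and LSD1 fed stands furthest from the background.

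**Figure D1:**
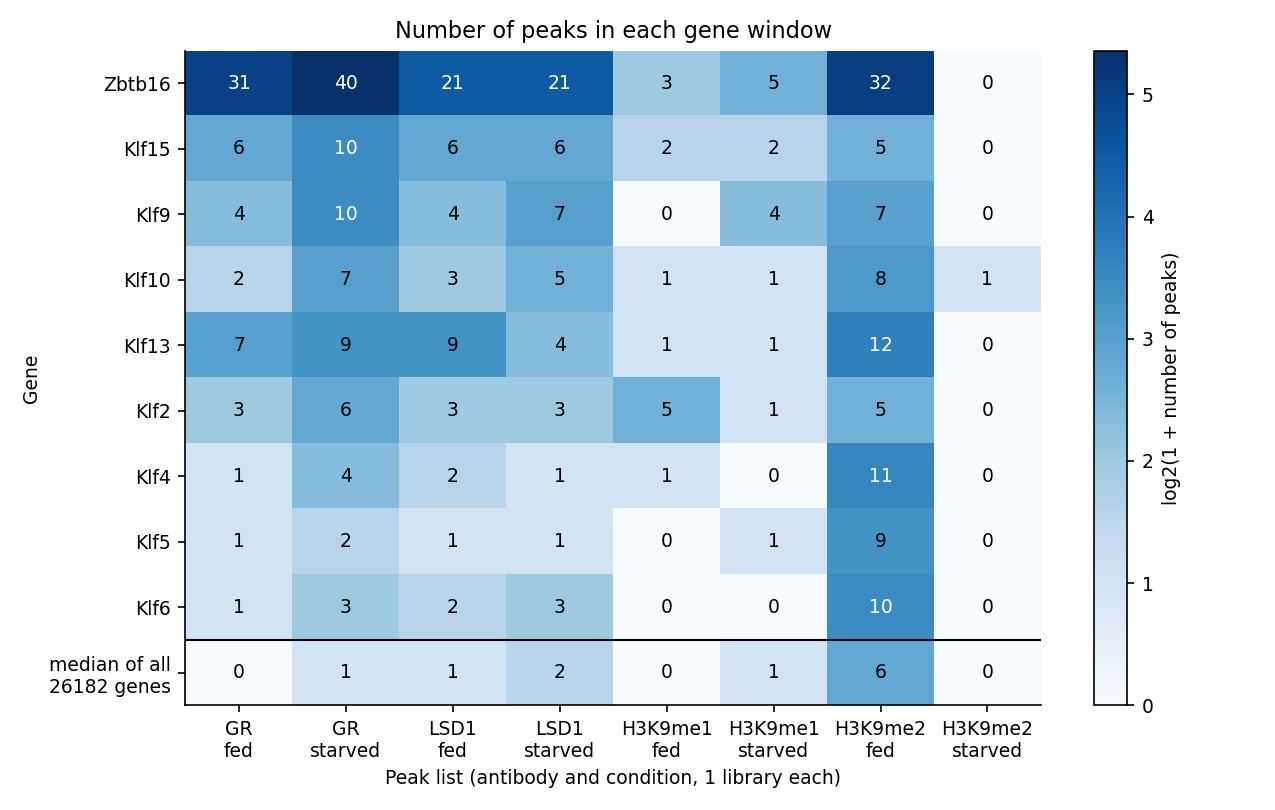
Number of peaks in the window of each gene (vertical axis) in each of the 8 lists (horizontal axis, antibody and condition, 1 library each), with the median over all 26182 genes in the lowest line. Colour is log2(1 + number of peaks); Zbtb16 holds 31 GR fed and 40 GR starved peaks, and the H3K9me2 starved column is at 0 except for 1 peak at Klf10.

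The plot of peak counts by gene and list shows a wide range within the set. GR fed peaks numbered 31 at Zbtb16, 7 at Klf13, 6 at Klf15, 4 at Klf9, 3 at Klf2, 2 at Klf10 and 1 each at Klf4, Klf5 and Klf6. In starved muscle the GR counts were 40 at Zbtb16, 10 at Klf9, 10 at Klf15, 9 at Klf13, 7 at Klf10, 6 at Klf2, 4 at Klf4, 3 at Klf6 and 2 at Klf5. Every gene thus had more GR peaks in the starved list than in the fed list. Summed over the 9 genes, 56 fed and 91 starved GR peaks gave a ratio of 1.62 (CI 1.15 to 2.31), below the ratio of 2.68 between the whole lists. The direction turned among strong peaks of the 9 genes. A q-value of 1e-05 or less was held by 24 fed and 20 starved peaks (ratio 0.833). A fold enrichment of at least 5 was held by 14 fed and 11 starved peaks (ratio 0.786). The whole lists turned as well at that fold, with 1567 fed and 684 starved peaks on the assembled chromosomes.

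LSD1 peaks numbered 51 at the 9 genes in either condition, which gives a ratio of 1.00 (CI 0.665 to 1.50). The whole deposited starved list was 3.99 times as long as the fed list, but it also counts peaks outside gene windows. Per gene window the mean over all genes rose less, from 1.18 fed to 2.77 starved LSD1 peaks. Counts fell from 9 to 4 at Klf13 and from 2 to 1 at Klf4, and rose from 4 to 7 at Klf9, from 3 to 5 at Klf10 and from 2 to 3 at Klf6. They were equal at Klf15 (6), Klf2 (3), Klf5 (1) and Zbtb16 (21). At a q-value of 0.01 or less, 26 fed and 13 starved LSD1 peaks were left, a ratio of 0.500. No count at that limit is given for the whole lists. Counting only peaks of 5-fold enrichment or more, the whole LSD1 lists held 1111 fed and 305 starved peaks on the assembled chromosomes. The 9 genes held 4 and 0 such peaks, so the fall among strong LSD1 peaks was not confined to them.

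A GR peak with a fold enrichment of at least 5 was present in fed muscle at 5 of 9 genes (Klf2, Klf9, Klf13, Klf15 and Zbtb16), against 7.17% of all genes. In starved muscle the same genes without Klf2 had one, 4 of 9, against 3.36% of all genes. The promoter, defined as the stretch between 1000 bp before and 100 bp after a TSS, was touched by a GR fed peak at 8 of 9 genes, all but Klf15, against 16.0% of all genes. A GR starved peak touched it at 8 of 9, all but Klf5 (28.9% of all genes). LSD1 fed peaks touched the promoter of all 9 (25.4% of all genes) and LSD1 starved peaks that of 8, all but Klf5 (18.2%). Many of these calls were weak and would not pass a q-value limit of 0.01. Above it were the LSD1 fed promoter peaks of Klf2, Klf4, Klf5, Klf6, Klf9 and Klf10 (0.0101 to 0.0656). So were the GR fed ones of Klf4, Klf5 and Klf13 (up to 0.0492). The LSD1 starved ones of Klf9, Klf13, Klf15 and Zbtb16 (up to 0.0463) were above it as well.

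Zbtb16 encodes a repressor with an N-terminal BTB domain and is widely used as a marker of glucocorticoid response. The gene lies at chr9:48651797-48836225 on the minus strand and is 184 kb long. No other gene of the 26182 had as many GR fed peaks as its 31, and the next highest count was 25. In GR starved, 2 genes exceeded its 40 peaks, in LSD1 fed 4 genes exceeded its 21, and in LSD1 starved 87 genes exceeded its 21. Its window of 214 kb is long, yet the 1084 genes with a window at least as long had a median of 1 GR fed and 2 GR starved peaks. Scaled to length, Zbtb16 had 14.5 GR fed peaks per 100 kb, a density that 26 genes surpassed. Its density was surpassed by 308 genes in GR starved, 555 in LSD1 fed and 1195 in LSD1 starved.

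**Figure D2:**
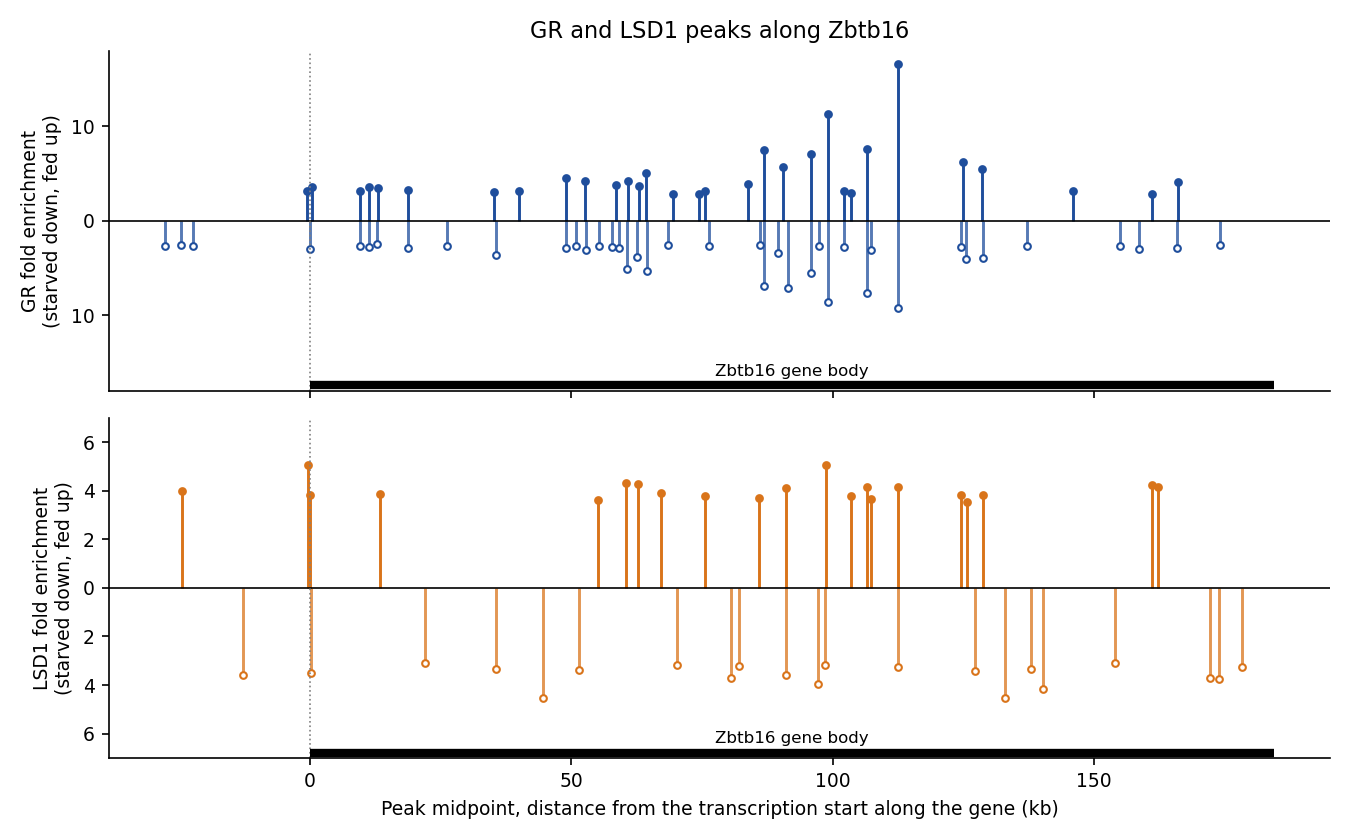
GR peaks (upper panel) and LSD1 peaks (lower panel) along Zbtb16, by distance of the midpoint from the TSS in kb (horizontal axis) and fold enrichment (vertical axis, filled points upward for fed, open points downward for starved, 1 library each). The highest GR stems stand between 60 and 130 kb, led by 16.6 fed and 9.30 starved at 112 kb, while no LSD1 stem exceeds 5.08.

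The GR peaks of Zbtb16 were gathered in its long introns, as the map of the gene shows. Intron 2, of 88.2 kb, held 18 fed and 21 starved GR peaks, intron 3, of 26.1 kb, held 6 and 7, and intron 4, of 52.0 kb, held 5 and 7. Its 9 GR fed peaks that reached a fold enrichment of 5 all lay between 64.4 and 129 kb downstream of the TSS. Those at 125 and 129 kb lay nearer to the TSS of another gene, Nnmt. The highest, in intron 3 at 112 kb, had a fold enrichment of 16.6 in fed muscle, rank 3 of the 14108 GR fed peaks, and 9.30 in starved muscle. In the same intron the peak at 99.1 kb had 11.3 and 8.63, the peak at 107 kb had 7.60 and 7.72, and the peak at 95.9 kb had 7.06 and 5.58. In intron 2 the peaks at 86.8 and 90.6 kb had 7.47 and 5.73 in fed and 6.96 and 7.09 in starved muscle. Fed values were thus higher at the 2 strongest sites, whereas the starved values were higher at 90.6 and at 107 kb.

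The centre of the highest Zbtb16 peak is shown because its best GRE match has 3 mismatches, so that it was not among the GRE-like sequences. Capitals mark the half-site AGAACA or its reverse complement TGTTCT, which occurred 3 times in these 300 bases. Among equally long centres of GR fed peaks, 0.824% held at least 3. The peak at 99.1 kb held 2 matches with 2 mismatches, which are printed below it with 40 bases on either side and capitals for the matching bases. The strand is the plus strand of GRCm38.
Zbtb16 peak centre, chr9:48723643-48723942: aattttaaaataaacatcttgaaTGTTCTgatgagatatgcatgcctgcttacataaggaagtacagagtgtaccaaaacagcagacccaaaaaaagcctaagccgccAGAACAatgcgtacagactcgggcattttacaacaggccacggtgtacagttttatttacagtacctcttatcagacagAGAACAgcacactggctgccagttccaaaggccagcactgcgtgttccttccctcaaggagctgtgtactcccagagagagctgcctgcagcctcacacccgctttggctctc
Zbtb16 at 99.7 kb, chr9:48736467-48736561: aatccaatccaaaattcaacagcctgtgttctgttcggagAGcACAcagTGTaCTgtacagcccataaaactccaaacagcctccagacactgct
Zbtb16 at 98.6 kb, chr9:48737561-48737655: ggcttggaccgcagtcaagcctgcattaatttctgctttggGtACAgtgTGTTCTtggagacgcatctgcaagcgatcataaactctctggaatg
The sequences were chosen for the height of their peaks, and a match describes letters, not a bound site.

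The highest fold at Zbtb16 was lower for LSD1 than for GR, whereas the median was not. GR had medians of 3.66 fed and 2.87 starved, and LSD1 had 3.93 fed and 3.43 starved. The 21 LSD1 fed peaks had a median fold enrichment of 3.93 and a maximum of 5.08, at 0.305 kb upstream of the TSS, and 2 of them lay by midpoint in the promoter. In both conditions LSD1 met the GR peaks at 112 kb (LSD1 4.17 fed and 3.26 starved), at 99.1 kb (5.06 and 3.19) and at 90.6 kb (4.13 and 3.60). In fed muscle alone it met those at 107 kb (4.18), at 125 kb (3.54 and 3.81) and at 129 kb (3.84). At the GRE-like sequence 60.4 kb downstream, GR had 4.25 fed and 5.09 starved and LSD1 had 4.32 in fed muscle with no peak in starved muscle. Of 31 GR fed peaks at Zbtb16, 13 were overlapped by LSD1 fed (41.9%, CI 24.5 to 60.9%), and of 40 GR starved peaks, 7 by LSD1 starved (17.5%, CI 7.34 to 32.8%).

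Klf15 (chr6:90462576-90479686, plus strand) had 2 strong GR sites inside the gene. In intron 1, the peak 1.02 kb downstream of the TSS had a GR fold enrichment of 9.62 in fed muscle, and its starved counterpart, 2045 bp long, had 7.63. In intron 2, the peak at 8.69 kb had 9.46 in fed muscle and the one at 10.0 kb had 4.40. In starved muscle both were covered by 1 peak of 2503 bp with a fold enrichment of 4.85. LSD1 at the intron 1 site had 6.42 in fed muscle, rank 187 of 16616 and the highest LSD1 fold of the 9 genes, and 4.26 in starved muscle. LSD1 also had 4.70 fed and 3.53 starved at the TSS, and in fed muscle 4.26 at 8.66 kb and 4.18 at 9.60 kb, while no LSD1 starved peak lay in intron 2. GR and LSD1 thus met at the same intron 1 site in both conditions and at the intron 2 sites in fed muscle alone.

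Both Klf15 sites are shown, the first as 300 bases around the centre of its fed peak with half-sites in capitals, the other as the best match in the peak at 8.69 kb, which has 2 mismatches at the outer bases. At least 1 half-site was present in 27.3% of equally long centres of GR fed peaks.
Klf15 intron 1, chr6:90463449-90463748: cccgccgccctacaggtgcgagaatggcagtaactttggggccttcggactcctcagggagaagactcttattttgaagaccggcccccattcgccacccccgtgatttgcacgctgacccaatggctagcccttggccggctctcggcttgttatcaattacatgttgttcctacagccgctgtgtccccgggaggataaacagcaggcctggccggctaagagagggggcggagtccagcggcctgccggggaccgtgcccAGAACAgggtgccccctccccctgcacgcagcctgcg
Klf15 intron 2, chr6:90471349-90471443: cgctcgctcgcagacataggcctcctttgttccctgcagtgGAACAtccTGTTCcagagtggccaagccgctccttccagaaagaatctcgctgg
This match and the GRE-like Klf15 sequence printed above both fall within the 2503 bp of the starved peak.

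**Figure D3:**
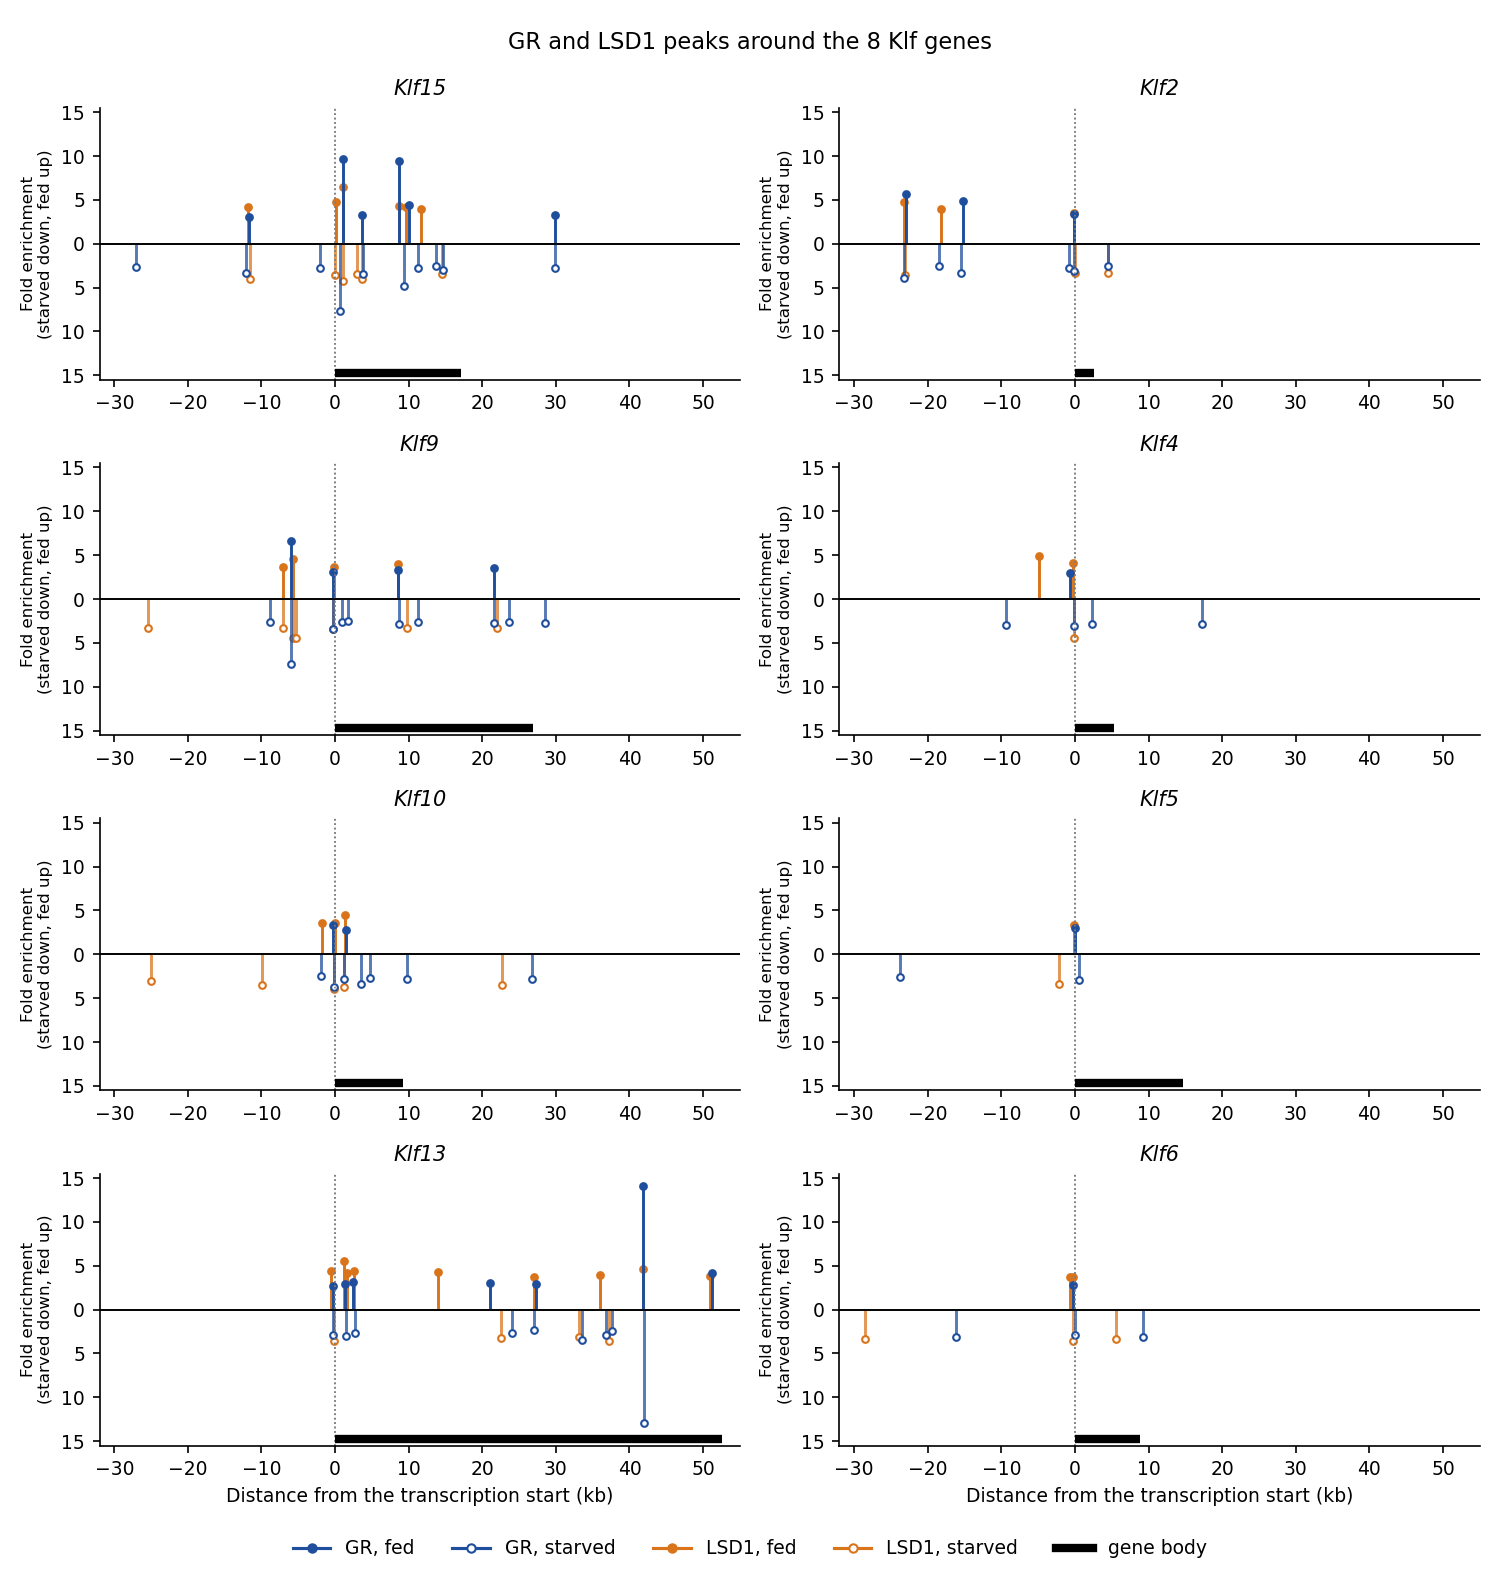
GR (blue) and LSD1 (orange) peaks around the 8 Klf genes, by distance of the midpoint from the TSS in kb (horizontal axis) and fold enrichment (vertical axis, filled points upward for fed, open points downward for starved, 1 library each), with the gene body as a black bar. The tallest GR stems are at Klf13 (14.1 fed), Klf15 (9.62 fed) and Klf9 (7.43 starved), whereas Klf4, Klf5 and Klf6 show no GR stem above 3.14.

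Klf9, Klf10 and Klf13 encode repressors that recruit the Sin3A corepressor through a short N-terminal domain. Among them Klf13 (chr7:63886351-63938915, minus strand) had the strongest single GR site of the Klf genes, in its 46.2 kb intron. The peak at 41.9 kb had a fold enrichment of 14.1 in fed muscle, rank 17 of 14108, and 12.9 in starved muscle, rank 6 of 37783. It covered the GRE-like sequence at 41.8 kb, and LSD1 had 4.68 there in fed muscle and no peak in starved muscle. The other GRE-like sequence of Klf13, at 26.8 kb, lay in weaker GR peaks of 2.95 fed and 2.38 starved, with LSD1 at 3.70 in fed muscle. The intron also holds the annotated non-coding genes E030018B13Rik and Gm27252, and the 41.9 kb site lies within the latter. Near its start Klf13 had LSD1 fed peaks at 1.18, 1.62 and 2.57 kb with 5.56, 4.18 and 4.39, none of which met an LSD1 starved peak.

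Klf9 (chr19:23141226-23168129, plus strand) was marked by a broad upstream site. The GR peak centred 5.95 kb upstream of the TSS was 3024 bp long with a fold enrichment of 6.67 in fed muscle, and 2861 bp long with 7.43 in starved muscle, ranks 590 and 158 in their lists. Within it LSD1 had 2 fed peaks, of 1536 bp with 4.55 and of 374 bp with 3.67, and 3 starved peaks. The starved ones were 119, 235 and 397 bp long with 4.44, 4.42 and 3.34, and the longest of them met the 374 bp fed peak, 7.03 kb upstream of the TSS. At the promoter GR had 3.05 fed and 3.46 starved, and LSD1 had 3.65 and 3.42. The best GRE match in the upstream peak has 2 mismatches, 6.13 kb upstream of the TSS, and is printed with 40 bases on either side, plus strand.
Klf9 upstream, chr19:23135052-23135146: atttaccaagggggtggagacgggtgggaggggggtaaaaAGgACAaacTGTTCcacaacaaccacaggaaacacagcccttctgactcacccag
Klf9 and Klf15 each had 10 GR starved peaks, a number that 781 genes exceeded.

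Klf10 (chr15:38291464-38300711, minus strand), first described as a gene induced by TGF-beta, had weaker GR peaks. Its promoter peak had a GR fold enrichment of 3.37 fed and 3.73 starved and its intron peak at 1.45 kb had 2.77 in either condition. LSD1 met both sites, with 3.52 fed and 3.95 starved at the promoter and 4.45 and 3.68 in the intron. Of its 7 GR starved peaks, 5 met no fed peak, with fold enrichments of 2.45 to 3.35.

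Klf2, Klf4, Klf5 and Klf6 belong to the KLF proteins known mainly as activators, with Klf2 and Klf4 prominent in endothelium and Klf4 and Klf5 in stem cells. Klf2 (chr8:72319062-72321654, plus strand) had 2 distal GR sites upstream. The one at 23.0 kb had 5.66 fed and 3.88 starved, with LSD1 at 4.75 and 3.61, and the one at 15.2 kb had 4.89 fed and 3.39 starved without LSD1. Both distal sites were intergenic, and Klf2 had the nearest TSS. At the Klf2 promoter GR had 3.35 fed and 3.08 starved and LSD1 had 3.48 and 3.39.

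Klf4 (chr4:55527137-55532475, minus strand), Klf5 (chr14:99298691-99313412, plus strand) and Klf6 (chr13:5861489-5870393, plus strand) each had 1 GR fed peak, at the promoter, with fold enrichments of 3.02, 2.97 and 2.82. The corresponding q-values were 0.0196, 0.0135 and 0.00818, so that only the Klf6 peak would pass a limit of 0.01. LSD1 fed had 4.15 at the Klf4 promoter, 3.37 at that of Klf5 and up to 3.76 at that of Klf6. In starved muscle the promoter values were 4.42 for LSD1 at Klf4 and 3.59 at Klf6, while the single LSD1 starved peak of Klf5 lay 2.24 kb upstream with 3.35. Klf4 also had an LSD1 fed peak of 4.94 at 4.93 kb upstream where neither GR list had one. These 3 genes had the lowest GR counts of the set in both conditions.

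RefSeq promoters (GRCm38.p6) were at hand for Klf2, Klf4, Klf6, Klf9, Klf13 and Klf15, 6 of the 9 genes. Those of Klf2, Klf4 and Klf9 are printed as the 250 bases upstream of the TSS on the strand of the gene. They were chosen since GR and LSD1 peaks touched the promoter as defined above in both conditions and they span the range of GC boxes. The GR fed peak of Klf4, chr4:55532988-55533181, lies further upstream and outside the printed bases. The GC box, a motif that KLF and Sp factors bind, was searched as GGGCGG or CCGCCC and is in capitals; CCGCCC copies can overlap by a base.
Klf2, chr8:72318812-72319061: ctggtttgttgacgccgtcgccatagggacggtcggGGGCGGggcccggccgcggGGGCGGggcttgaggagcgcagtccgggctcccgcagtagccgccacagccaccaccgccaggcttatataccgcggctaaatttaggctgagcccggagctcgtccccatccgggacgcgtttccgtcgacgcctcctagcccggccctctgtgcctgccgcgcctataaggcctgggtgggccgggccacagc
Klf4, chr4:55532476-55532725: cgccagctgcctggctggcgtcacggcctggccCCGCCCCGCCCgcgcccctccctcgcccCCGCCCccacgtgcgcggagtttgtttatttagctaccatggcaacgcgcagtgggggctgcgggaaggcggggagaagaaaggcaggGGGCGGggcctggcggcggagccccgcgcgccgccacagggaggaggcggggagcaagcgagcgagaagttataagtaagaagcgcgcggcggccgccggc
Klf9, chr19:23140976-23141225: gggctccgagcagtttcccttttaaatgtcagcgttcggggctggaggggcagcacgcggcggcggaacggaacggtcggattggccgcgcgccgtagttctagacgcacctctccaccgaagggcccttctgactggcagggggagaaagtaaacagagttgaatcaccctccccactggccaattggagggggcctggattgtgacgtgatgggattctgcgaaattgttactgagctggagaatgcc
GC boxes numbered 4 at Klf4, 3 at Klf13, 2 at Klf2, 1 at Klf6, 1 at Klf15 and 0 at Klf9. At least 1 was present in 32.7% of 32851 RefSeq promoters of this length. The 6 promoters had 59.6% to 74.0% G+C, above the median of 52.4% over all. None held a GRE-like sequence (0.140% of all promoters), the half-site AGAACA or TGTTCT (16.1%) or GCGCATGCGC (0.782%), the palindromic motif of nuclear respiratory factor 1.

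Most GR sites of fed muscle were called again in starved muscle, whereas most LSD1 sites were not. Of the 56 GR fed peaks, 43 were overlapped by a GR starved peak by at least 1 bp (76.8%, CI 63.6 to 87.0%), against 65.8% of the whole list. The 13 not overlapped comprised 9 at Zbtb16, 3 at Klf13 and 1 at Klf5. For LSD1, 17 of 51 fed peaks were overlapped in starved muscle (33.3%, CI 20.8 to 47.9%), against 23.1% of the whole list, and at Zbtb16 the number was 4 of 21 (19.0%). The GR interval includes the share of the whole list by a narrow margin, and so does that of LSD1. Of the 91 GR starved peaks, 42 were overlapped in fed muscle (46.2%, CI 35.6 to 56.9%), whereas the whole starved list reached 24.5%. Here Zbtb16 stood higher than the Klf genes, with 22 of 40 (CI 38.5 to 70.7%) against 20 of 51 (CI 25.8 to 53.9%), and the intervals overlapped.

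The height of overlapping peaks was compared in pairs, each a fed peak with the highest starved peak that it touched. Over the 43 GR pairs the starved fold was 0.896 times the fed fold in the median. Over the 9287 pairs of the whole list the median was 0.878. Of the 43 pairs, 27 were below 1 (62.8%), against 78.7% of the whole list. The lowest ratio was 0.513, at the Klf15 peak at 8.69 kb, and the highest was 1.24, at the Zbtb16 peak at 90.6 kb. In that Klf15 pair the starved peak was the one of 2503 bp, far longer than the fed peak. The same starved peak was also paired with the fed peak at 10.0 kb, and there the starved fold was the higher one. A starved peak at the Zbtb16 TSS was likewise counted in more than 1 pair. At the Klf9 upstream site the ratio was 1.11, at the Klf13 site at 41.9 kb 0.915 and at the highest Zbtb16 site 0.561. Among pairs with a fed fold of at least 5 the median was 0.791 in the 14 pairs of the 9 genes and 0.695 in the 1440 of the whole list. The 17 LSD1 pairs had a median ratio of 0.909, against 0.854 over all pairs. Of the 17, 15 were below 1 (88.2%), close to the 87.3% of all pairs. Folds come from separately called libraries, so a ratio carries the scaling of both. The peaks of a pair can also differ in length, and whether length bears on the ratios was not tested.

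**Figure D4:**
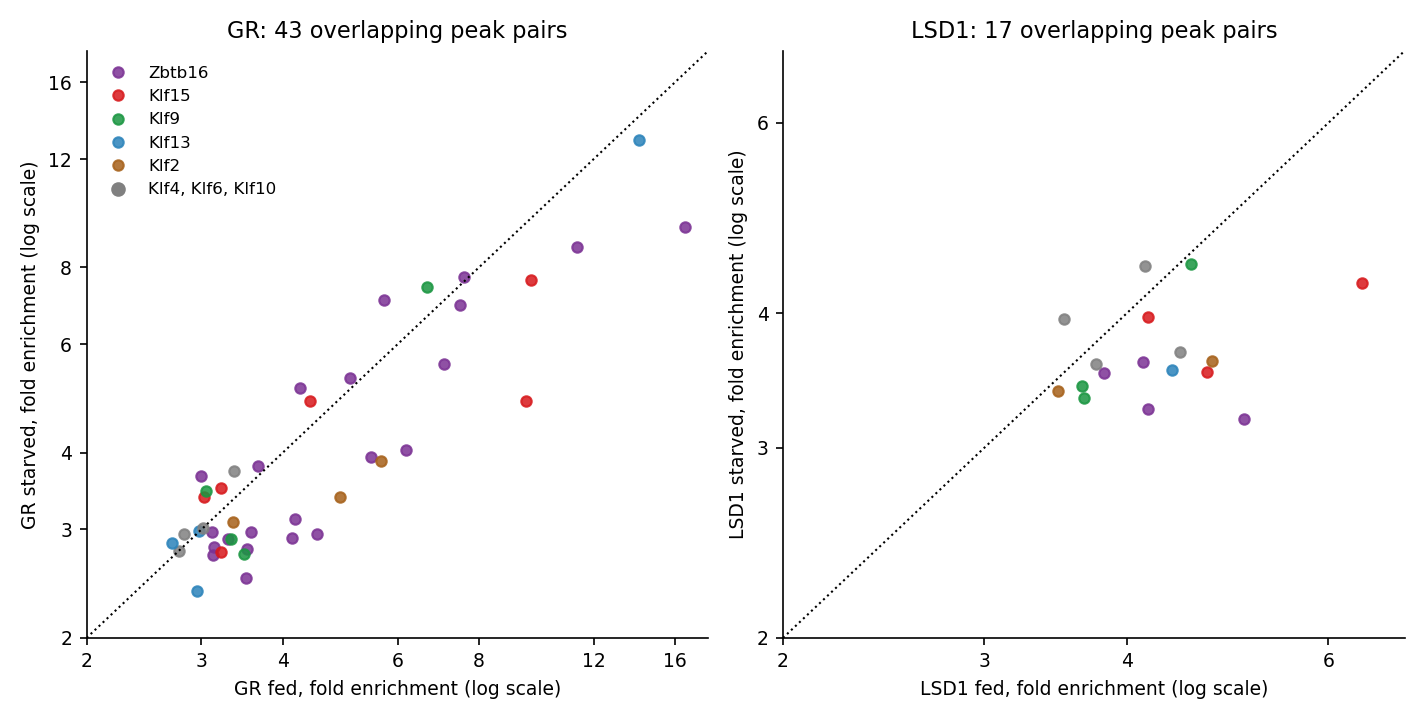
Fold enrichment in fed (horizontal axis) and starved muscle (vertical axis, both on a log scale) of overlapping GR peaks (left, 43 pairs) and LSD1 peaks (right, 17 pairs) of the 9 genes, 1 point per pair, with equality as a dotted line. Most GR points lie near or below the line, with Zbtb16 at 16.6 and 9.30 and Klf15 at 9.46 and 4.85 furthest below, while Klf13 at 14.1 and 12.9 and Klf9 at 6.67 and 7.43 stay close to it.

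Seen from GR, the share of fed peaks that met LSD1 was higher at the Klf genes than at Zbtb16. At the 8 Klf genes, 20 of 25 GR fed peaks were overlapped by LSD1 fed (80.0%, CI 59.3 to 93.2%), against 41.9% at Zbtb16 and 48.3% of the whole list. The interval of the Klf genes lay above the whole list, and it met that of Zbtb16 at its edge. By midpoint, 7 of the 25 GR fed peaks of the Klf genes lay in promoters, against 1 of 31 at Zbtb16, and the part of promoter position in the overlap was not tested. Over all 9 genes the share was 58.9% (33 of 56, CI 45.0 to 71.9%). Seen from LSD1, the shares of Zbtb16 and the Klf genes lay closer together. At Zbtb16, 14 of 21 LSD1 fed peaks met GR fed (66.7%, CI 43.0 to 85.4%). At the Klf genes the number was 22 of 30 (73.3%, CI 54.1 to 87.7%). The division into Zbtb16 and the Klf genes was made after the counts had been seen.

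In starved muscle fewer GR peaks met LSD1. Over the 9 genes, 21 of 91 GR starved peaks were overlapped by LSD1 starved (23.1%, CI 14.9 to 33.1%), against 14.7% of the whole list. Seen from LSD1, 36 of 51 fed peaks met a GR fed peak (70.6%, CI 56.2 to 82.5%), against 42.8% of the whole list. Of the starved LSD1 peaks, 24 of 51 met a GR starved peak (47.1%, CI 32.9 to 61.5%), against 9.14% of the whole list. Both intervals lay above the share of their list. The windows of the 9 genes were also denser in peaks, with a median of 10.9 GR starved peaks per 100 kb against 1.67 over all genes. Their LSD1 peaks were longer than those of the lists, with medians of 246 and 196 bp fed and of 127 and 103 bp starved. Whether density or length bears on the overlap shares, here and in the paragraphs above, was not tested. When the GR and LSD1 peaks of both conditions were joined into 139 separate sites, 15 held a peak of all 4 lists, namely 4 at Zbtb16, 2 each at Klf2, Klf9, Klf10 and Klf15, and 1 each at Klf4, Klf6 and Klf13. Klf5 had no such site.

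**Figure D5:**
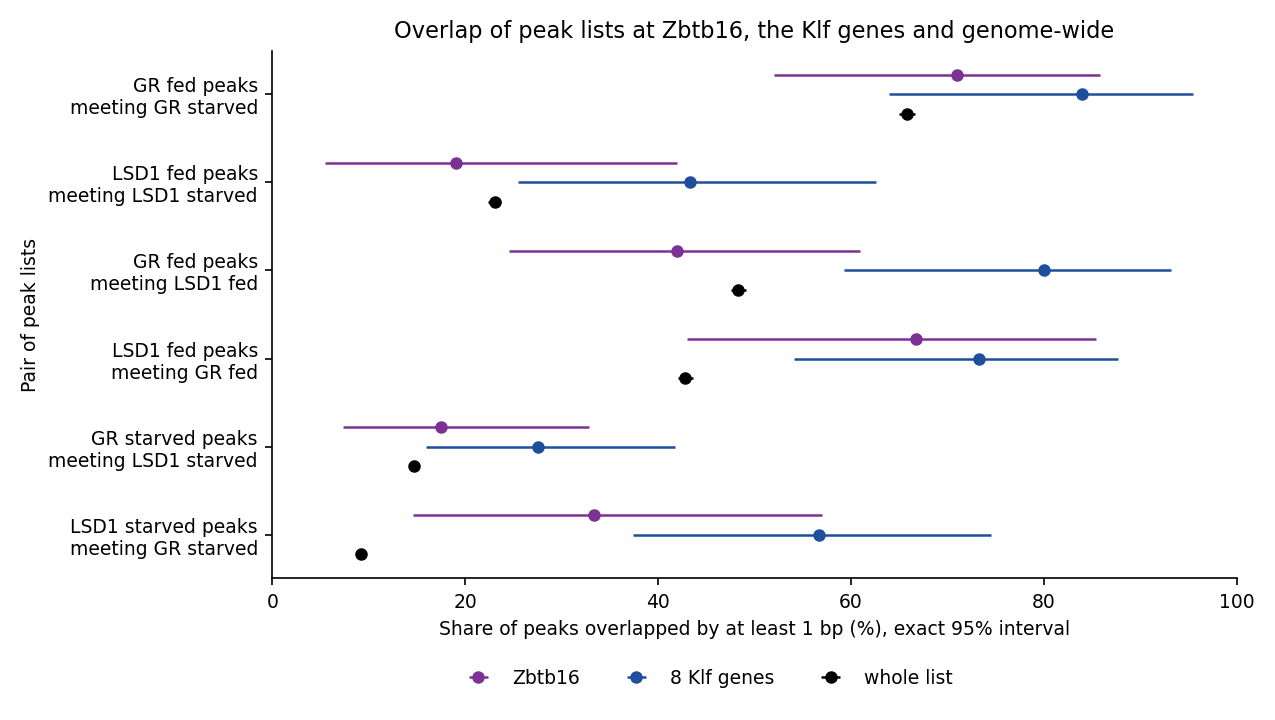
Share of peaks overlapped by at least 1 bp of another list (horizontal axis, percent) for 6 ordered pairs of lists (vertical axis), at Zbtb16, at the 8 Klf genes and in the whole list. Bars are exact 95% binomial intervals, which cover counting error only; the Klf genes lie highest in the 6 pairs drawn (GR fed with GR starved, LSD1 fed with LSD1 starved, and GR with LSD1 in each condition, both ways round), with 80.0% of GR fed peaks meeting LSD1 fed, but not in pairs left undrawn, such as GR starved with GR fed (20 of 51 against 22 of 40 at Zbtb16).

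H3K9me2 fed peaks numbered 99 at the 9 genes, with 32 at Zbtb16, 12 at Klf13, 11 at Klf4, 10 at Klf6, 9 at Klf5, 8 at Klf10, 7 at Klf9 and 5 each at Klf2 and Klf15. The median of 9 per gene stood against 6 over all genes. In starved muscle there was 1 peak, at Klf10, 27.6 kb upstream of the TSS with a fold enrichment of 3.57, where no H3K9me2 fed peak had been called. This gave a ratio of 0.0101 (CI 0.000253 to 0.0576) against 0.0386 between the whole lists. An H3K9me2 fed peak touched the promoter of Klf4, Klf10, Klf13 and Klf15, 4 of 9 genes, against 24.2% of all genes. Of the GR fed peaks of the set, 12.5% (CI 5.18 to 24.1%) were overlapped by H3K9me2 fed, and 16.5% of the whole list were. H3K9me2 peaks were weak, with a median fold enrichment of 3.28 at the 9 genes and a maximum of 4.84, at Klf4.

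H3K9me1 was sparse, with 13 fed and 15 starved peaks at the 9 genes, a ratio of 1.15 (CI 0.512 to 2.63) against 2.68 between the whole lists. The fed peaks were most frequent at Klf2, with 5 between 18.1 kb upstream and 26.9 kb downstream, a count that 108 genes exceeded. Klf9 went from 0 fed to 4 starved peaks, 1 of which, with 3.51, lay 5.34 kb upstream within the broad GR site. At Klf15 an H3K9me1 starved peak of 3.64 lay in the promoter. The median length was 49 bp in both conditions, the shortest length in these lists.

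The genes most alike in their counts over the 8 lists were Klf4 and Klf6, with a Euclidean distance of 1.46 on log2(1 + peaks), followed by Klf13 and Klf15 with 1.58 and Klf5 and Klf6 with 1.59. Zbtb16 was nearest to Klf13, at 4.40. The measure rests on single libraries and on few peaks per gene.

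Relatives of the 9 genes were counted in the same way. Of the 9 other Klf genes, 7 had a GR fed peak and 7 a GR starved peak, with a highest fed count of 3, at Klf16, and 6 and 8 had an LSD1 fed and an LSD1 starved peak. The shares of all genes were 43.1% for GR fed, 66.5% for GR starved, 51.1% for LSD1 fed and 83.7% for LSD1 starved, and the starved counts of these Klf genes lie near them. Klf8 and Klf14 had no GR peak in either list. Of 9 Sp genes, which encode the nearest zinc finger relatives of the KLF proteins, 6 had a GR fed and 7 a GR starved peak. For LSD1 the Sp genes gave 6 and 7, the latter close to the share of all genes. Of 11 further BTB zinc finger genes, 9 had a GR fed and 11 a GR starved peak, and all 11 had LSD1 peaks in both conditions. Zbtb20, a long gene for a repressor expressed in brain and liver, led them with 14 GR fed and 24 GR starved peaks, and Bcl6, for a repressor of germinal centre B cells, had 6 and 9.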

How the data were processed

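ChIP-seq peak lists of fed and starved mouse skeletal muscle were analysed for GR, LSD1, H3K9me1 and H3K9me2, from 1 library per antibody and condition. Reads were mapped by the authors to mm10 (GRCm38) and reads with a single location were kept. Per their methods, a blacklist of the human genome was removed and broad peaks were called per library with MACS2 against input. The labels name bcl2fastq 2.20.0.422. Peak names mention Bowtie2, while the methods name an earlier Bowtie. Each deposited list gave a fold enrichment (ratio over control) and the p-value and q-value as −log10, all computed by the authors. The score per peak, also deposited by the authors, and the p-value were not used. The highest q-values in the lists were 0.0925 to 0.0998, so the lists are less strict than the limit stated in the methods. For LSD1 starved the study text gives far fewer peaks than the deposited list holds, and fewer than in fed muscle, whereas the deposited starved list is the longer one.

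Peaks were assigned to 26182 genes from 45756 curated RefSeq transcripts, by midpoint in the gene body or within 30 kb of a TSS, and to promoters (1000 bp before to 100 bp after a TSS) by any base. A midpoint was placed in a promoter first, then in an exon, an intron or intergenic sequence. Genes whose windows overlap share peaks. Overlap meant at least 1 bp. Shares have exact Clopper-Pearson 95% intervals, which cover counting error only, as nearby peaks may depend on each other, and the interval of a ratio of 2 counts was derived from the same binomial interval. With 1 library per group no test was made. The named items were, by rule, all 9 genes, the highest-fold GR and LSD1 peak of each, their promoter peaks, every GRE-like sequence in a GR peak and the most alike pair. Family lists (other Klf, Sp and BTB zinc finger genes) were given as counts. The 9 genes, the lists and the alternatives were chosen with earlier results of these data known, and matches with 2 mismatches and half-sites were added after the peaks had been seen. Counting, overlap and motif functions were tested on simulated data. Python 3.11.15, pandas 2.3.3, scipy 1.17.1 and pysam 0.24.0 were used.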

Additional observations from a re-analysis of the deposited data

How the results depend on the processing

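With 1 library per group and values that come from no test, no paired analysis was possible. Of 114 alternatives over 16 results, 73 were counted as the same, 38 as moved and 3 turned direction. The same still allows sizeable changes. Genes with a GR fed peak went from 9 to 6 at q-values up to 1e-05. The overlap of LSD1 fed with LSD1 starved went from 33.3% to 45.2% within 30 kb of a TSS only. The 3 concern the ratio of starved to fed GR peaks (1.62), which became 0.833 with q-values up to 1e-05, 0.786 with folds from 5 upward and 0.893 with lists cut to equal length, and it was 1.11 at a q-value of 0.01 or less. The ratio for LSD1 (1.00) became 0.500 at a q-value of 0.01 or less, 0.235 with equally long lists, and 0 under both the limit of 1e-05 and the fold limit. At a fold enrichment of at least 5, 5 genes kept a GR fed peak, 4 a GR starved, 3 an LSD1 fed, 0 an LSD1 starved, 0 an H3K9me1 fed, 1 an H3K9me1 starved and 0 an H3K9me2 peak of either condition. At a q-value of 1e-05 or less, 6 genes had a GR fed peak and 6 a GR starved peak. At that limit 1 gene had an LSD1 fed peak, 0 an LSD1 starved, 0 an H3K9me1 fed, 1 an H3K9me1 starved and 0 an H3K9me2 peak. At a q-value of 0.01 or less, H3K9me1 starved was at 4 genes and H3K9me2 starved at 0. Equally long lists left LSD1 starved at 5 genes, H3K9me1 starved at 4 and H3K9me2 fed at 3. Within 10 kb of a TSS only, H3K9me1 fed was at 1 gene, H3K9me1 starved at 3 and H3K9me2 starved at 0, and by nearest TSS H3K9me2 starved was at 3. Among the overlaps, GR fed with GR starved rose to 89.7% within 30 kb of a TSS only, LSD1 fed with LSD1 starved was 11.5% and GR fed with LSD1 fed 43.2% at a q-value of 0.01 or less, and GR fed with LSD1 fed was 80.0% without Zbtb16, a setting chosen after seeing the data. The GRE-like share of GR fed peaks was 0 with no mismatch, 17.9% with at most 2 and 1.79% within 200 bp around the midpoint, and that of GR starved peaks 0, 12.1% and 0. The stricter settings leave fewer peaks by construction, and the other causes were not tested. Unknown depth limits every comparison between lists, and a missing peak may be one under the calling limit.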
